A study of Homo sapiens with 4 samples.

Results

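The genes described here are 10 members of the bone morphogenetic protein (BMP) pathway, taken by symbol from the 36601 features of each count matrix. They are the ligands BMP2, BMP4, BMP5, BMP6 and BMP7, the receptors BMPR1A, BMPR1B and BMPR2, and the secreted antagonists NOG (noggin) and GREM1 (gremlin). The family was selected because BMP5 was the gene with the largest increase in progenitor nuclei of PP121-treated ganglioids, so that comparison is given as a description, with no test.

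Enteric ganglioids, free-floating cultures grown from the human embryonic stem cell line H9 through enteric neural crest, were profiled by single-nucleus RNA-seq in 4 samples. In 2 of them 2 µM PP121, an inhibitor of tyrosine and phosphoinositide kinases, was in the medium from day 15 to day 20, and the other 2 were controls. Each sample pooled ganglioids of 1 differentiation of this single line. The deposited annotation dates replicate 1 of each treatment to day 42 and replicate 2 to day 38, so the day cannot be told apart from the differentiation. All 4 cultures shared BMP4 in the first induction medium and glial cell line-derived neurotrophic factor from day 15 onwards. Nuclei carried the class that the authors assigned to them.

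BMP ligands are secreted dimers that join a type I receptor (BMPR1A, BMPR1B or ACVR1) and a type II receptor such as BMPR2, and the complex phosphorylates SMAD1, SMAD5 and SMAD9, which enter the nucleus with SMAD4. Noggin and gremlin bind ligands outside the cell and keep them from the receptors. In the gut the pathway is known for its part in the migration of enteric neural crest, the grouping of neurons into ganglia and the differentiation of neuron types.

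The 4 samples held 2912 to 4587 annotated nuclei with median depths of 6289 to 7071 unique molecular identifiers (UMIs), and any pair of libraries shared 4 to 15 barcodes. Day 38 and day 42 differed in composition: mesenchymal nuclei numbered 408 and 422 in control replicate 2 and PP121 replicate 2, against 40 and 33 in the replicates 1. The class labels were checked against marker lists, whose summed levels are given in CPM, the UMIs of a gene as a share of all UMIs of the summed nuclei, on the usual counts-per-1e6 scale. The 11 neuron markers summed to 7822 to 10785 CPM in enteric neurons and at most 3025 CPM elsewhere, and the 13 mesenchymal markers summed to 4873 to 5514 CPM in mesenchymal nuclei and at most 579 CPM elsewhere. The 7 progenitor markers summed to 1914 to 2434 CPM in progenitor 2, where the neuron markers summed to 1581 to 2101 CPM. In control replicate 1 the neuron markers there were the higher of the 2 lists (2101 against 2050 CPM). In progenitor 1 the progenitor markers reached 649 to 934 CPM, below the 974 to 1424 CPM of the neuron markers in the same nuclei. The unknown class had 1858 to 2361 CPM of progenitor markers and 190 to 687 CPM of the 5 neural tube or choroid plexus markers, against at most 96.9 CPM of the latter in any other class. Epithelial nuclei numbered 9 to 37 a sample and had 30.9 to 59.8 CPM of the 3 epithelial markers, so their values are not used.

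All 10 members are protein-coding genes in the RefSeq annotation of GRCh38.p14, the build that the submitters' notes also name. BMP5 lies on chromosome 6 from 55753653 to 55875590 and BMP6 on the same chromosome from 7726099 to 7881728. Windows before a gene start were held for 7 of the 10 members, and none for BMP2, BMP7 and NOG. The 250 bases before the starts of BMP5 and BMP6 are shown, the first because BMP5 is the ligand the results turn on and the second as a relative of it, with each CG dinucleotide in capitals. The BMP5 window is chr6:55875591-55875840 on the minus strand and the BMP6 window is chr6:7725849-7726098 on the plus strand.
BMP5: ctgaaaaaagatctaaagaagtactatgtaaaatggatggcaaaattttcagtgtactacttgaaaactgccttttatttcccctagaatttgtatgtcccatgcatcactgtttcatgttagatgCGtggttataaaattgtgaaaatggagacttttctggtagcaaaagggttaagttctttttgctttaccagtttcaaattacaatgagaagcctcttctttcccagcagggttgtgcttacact
BMP6: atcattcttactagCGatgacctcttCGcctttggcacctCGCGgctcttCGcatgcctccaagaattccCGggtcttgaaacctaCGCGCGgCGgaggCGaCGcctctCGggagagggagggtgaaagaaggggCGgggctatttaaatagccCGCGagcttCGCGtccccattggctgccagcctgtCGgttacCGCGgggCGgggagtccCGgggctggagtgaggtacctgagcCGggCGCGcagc
The BMP5 window holds 1 CG and 35.6% G or C, and 14.7% of the 35116 windows in the table have as few CG dinucleotides. The BMP6 window holds 26 CG dinucleotides and 64.4% G or C, against medians of 11 and 58% over all windows. GGCGCC, a GC-rich element bound by SMAD proteins, occurs in neither window on either strand and in 16.4% of all windows. CAGACA, a longer string that holds the shorter SMAD element, is in neither window on either strand and in 13.6% of all windows. The shorter element on its own was not searched for, so its absence cannot be read from this.

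BMP5 was highest in mesenchymal nuclei, followed by the unknown class. In mesenchymal nuclei its level was 143 CPM in control replicate 1, 238 CPM in control replicate 2, 283 CPM in PP121 replicate 1 and 256 CPM in PP121 replicate 2, the replicates 1 resting on 51 and 84 UMIs. In the unknown class it was 88.5, 108, 132 and 132 CPM in the same order. Each mesenchymal value lay above every value of the unknown class, and each of those lay above every value in neurons and progenitors. The order below that was progenitor 2, enteric neurons and progenitor 1, whose ranges over the 4 samples overlapped from each to the next.

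Within progenitor 2 the BMP5 level was 1.90 CPM in control replicate 1 and 9.25 CPM in control replicate 2, against 21.1 CPM in PP121 replicate 1 and 54.7 CPM in PP121 replicate 2. These are 17, 50, 167 and 354 UMIs. The groups did not overlap, and PP121 was 11.1-fold above the control on day 42 and 5.91-fold on day 38. In progenitor 1 the 4 levels were 0.758, 3.51, 0.997 and 4.93 CPM, from 3, 14, 7 and 15 UMIs, and followed the day. Over both progenitor classes together the log2 difference between PP121 and control was 2.62 ± 0.68 (SE, n = 2 each). It was 2.91 in progenitor 2 alone and 0.25 in progenitor 1 alone. This is the comparison that chose the members, so no test is read from it. In it 0% of 20260 genes passed an adjusted p of 0.05, 1.72% passed with the replicate number as a block, and 15.7% had both PP121 samples above both controls.

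BMP5 was detected in few progenitor nuclei. After each nucleus was thinned to 2000 UMIs, 0.348% of progenitor 2 nuclei in control replicate 1 held a BMP5 UMI (95% exact interval 0.095 to 0.89), and 2.07% did in control replicate 2 (1.14 to 3.45). The shares were 2.64% in PP121 replicate 1 (1.77 to 3.76) and 7.17% in PP121 replicate 2 (5.53 to 9.11). Without thinning, 11 of 1155, 31 of 683, 71 of 1107 and 129 of 855 nuclei had 1 or more. Progenitor 1 gives the level in a class with little of the transcript, with 0 of 582 nuclei in control replicate 1, which allows a share of up to 0.515%, and 0.256% to 0.602% in the other samples. Median depth there was lower, at 4833 to 5953.5 UMIs in nuclei without BMP5, against 5941.5 to 6659.5 UMIs in progenitor 2. Intervals and limits cover counting error only.

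The number of transcripts per nucleus also differed between the samples of progenitor 2. Nuclei with 5 to 9 BMP5 UMIs numbered 0 in control replicate 1, 1 in control replicate 2, 4 in PP121 replicate 1 and 14 in PP121 replicate 2. Those with 10 or more numbered 0 in both controls, 2 in PP121 replicate 1 and 4 in PP121 replicate 2. The highest nucleus held 37 UMIs. The 10 nuclei with most BMP5 gave 94.1% and 48% of all its UMIs in the controls (17 and 50 UMIs in all), and 43.1% and 31.6% in the treated replicates 1 and 2. In mesenchymal nuclei the same share was 23.7% and 23.3% on day 38 and 86.3% and 78.6% among the few of day 42. Of mesenchymal nuclei 20.0% to 27.1% held BMP5 after thinning.

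**Figure D1:**
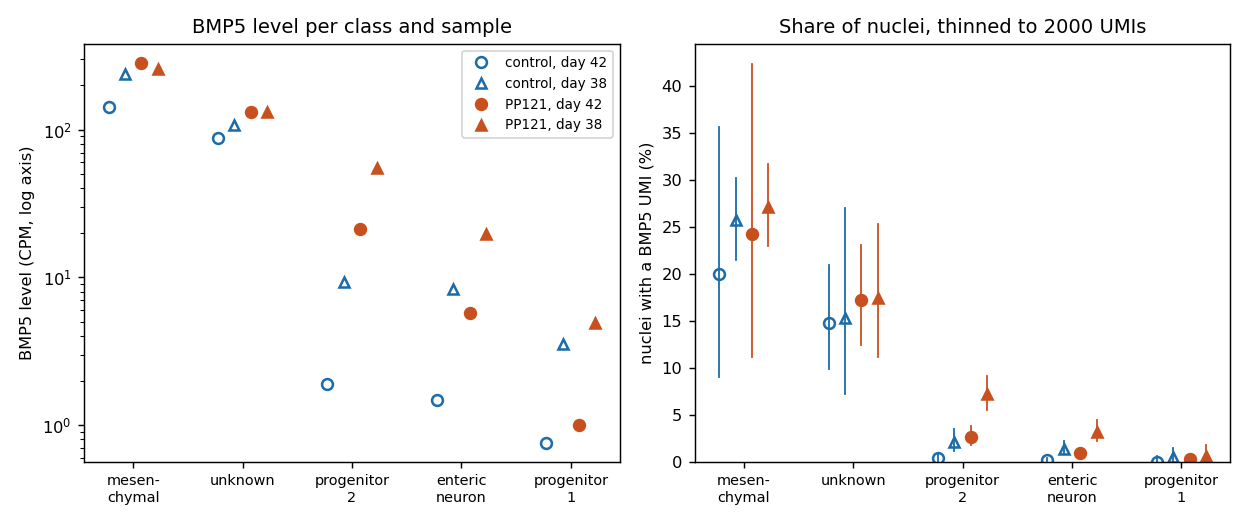
BMP5 by class in the 4 samples; the left panel gives the level in CPM on a log axis, the right panel the percent of nuclei with a BMP5 UMI after thinning to 2000 UMIs, with 95% exact intervals as bars. In progenitor 2 both PP121 samples (21.1 and 54.7 CPM) lie above both controls (1.90 and 9.25 CPM); mesenchymal points of day 42 rest on 40 and 33 nuclei.

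The markers of mesenchymal nuclei were set beside BMP5 in each class, because these nuclei had the highest level of the transcript and were more frequent on day 38. Summed over the 13 markers, of which none was at 0 in progenitor 2, the level there was 281 CPM in control replicate 1, 365 CPM in control replicate 2, 348 CPM in PP121 replicate 1 and 423 CPM in PP121 replicate 2. PP121 was thus 1.24-fold and 1.16-fold above the control of the same day for the markers. RUNX2, 1 of the 13, gave 98.3 and 109 CPM of these sums in controls and 111 and 109 CPM with PP121. Of the 13 markers 0 exceeded BMP5's fold on day 42 and 1 did on day 38, TWIST1, a transcription factor of mesenchyme, at 6.12-fold from 22 UMIs against 3 (95% counting interval 1.84 to 31.9). For every 100 marker UMIs, progenitor 2 had 0.677 and 2.54 BMP5 UMIs in control replicates 1 and 2. It had 6.05 and 12.9 in PP121 replicates 1 and 2. Mesenchymal nuclei had 2.76 and 4.89 in these controls, above progenitor 2, and 5.55 and 4.64 in the PP121 samples, below it. Progenitor 2 nuclei with a BMP5 UMI had 348 and 395 CPM of the markers in the PP121 samples, and those without had 348 and 430 CPM.

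COL3A1, a fibrillar collagen of mesenchyme picked from the list after its values were seen, was 4.12 and 2.55 CPM in neurons of the replicates 1 and 17.9 and 16.2 CPM in those of the replicates 2, as the mesenchymal nuclei were few and many. Not all markers were higher in the replicates 2 of these neurons, LAMA4 being 7.65 and 6.48 CPM in the replicates 1 and 7.39 and 4.68 CPM in the replicates 2, and EDNRA 9.02 and 11.9 CPM against 8.12 and 9.02 CPM. The ratio of BMP5 to COL3A1 was 25.5 and 29.7 UMIs per 100 in mesenchymal nuclei of the replicates 2. In progenitor 1 of the same samples it was 14.6 and 16.9 per 100, below the mesenchymal ratio. In progenitor 2 it was 34.5 per 100 in control replicate 2 and 230 per 100 in PP121 replicate 2. Among neurons it was 46.2 and 122 per 100. In control and PP121 replicates 1 the ratio was 16.3 and 28.5 per 100 in mesenchymal nuclei. Progenitor 1 of those samples had 9.68 and 41.2 per 100, from 3 and 7 BMP5 UMIs, the latter above the mesenchymal ratio. Progenitor 2 had 51.5 and 795 per 100 there, and neurons 35.9 and 226. The part of RNA from mesenchymal nuclei in the BMP5 counts of other classes was not tested.

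**Figure D2:**
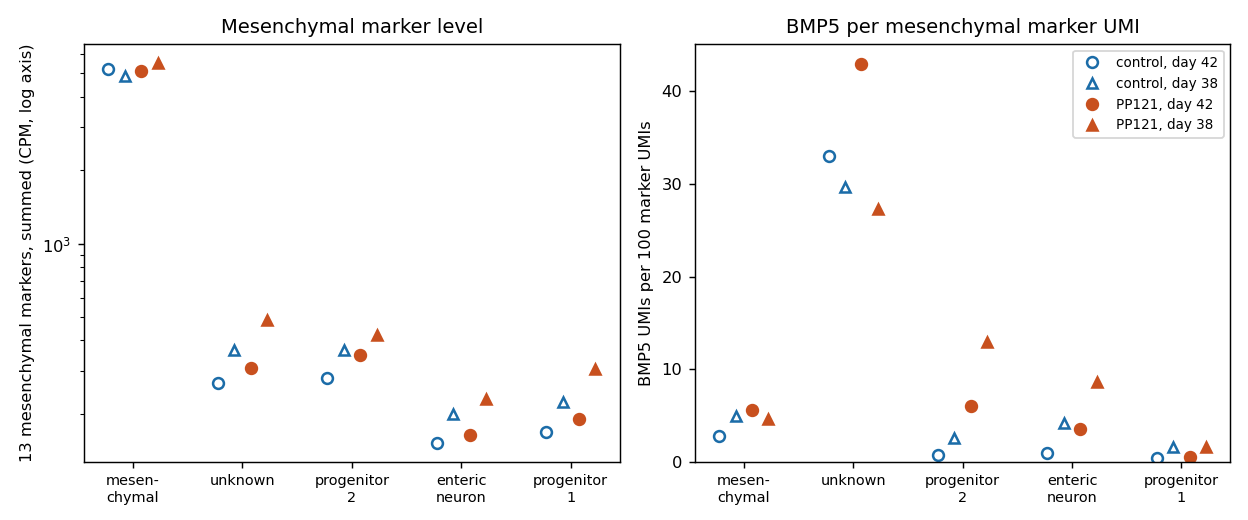
Mesenchymal markers beside BMP5 by class and sample; the left panel gives the summed level of the 13 markers in CPM on a log axis, the right panel BMP5 UMIs per 100 UMIs of those markers. Marker levels in progenitor 2 range from 281 to 423 CPM while BMP5 per 100 marker UMIs ranges from 0.677 to 12.9, and the unknown class lies highest at 27.3 to 43.0.

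BMP5 also differed along the cell cycle in mesenchymal nuclei. By the deposited phase calls it was 282, 196 and 136 CPM in G1, S and G2M nuclei of control replicate 2, and 289, 202 and 195 CPM in those of PP121 replicate 2. G1 nuclei were highest in the replicates 1 as well, with 178 against 92.2 CPM in S for control and 337 against 238 CPM for PP121. These rest on 25 and 14 nuclei in control (40 and 11 UMIs) and 19 and 11 with PP121 (63 and 21 UMIs). G2M held only 1 nucleus in that control and 3 in that PP121 sample, with 0 BMP5 UMIs. Progenitor 2 had no such order, since the highest phase was G2M in control replicate 1 (3.05 CPM, 4 UMIs), S in control replicate 2 (11.2 CPM) and PP121 replicate 1 (27.9 CPM) and G1 in PP121 replicate 2 (62.3 CPM). These calls come from the same counts and free RNA enters them, so they are a description.

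The next question was whether the members changed with PP121 in enteric neurons, which the choice of members did not use but which come from the same libraries. Neuronal BMP5 was 1.48 CPM in control replicate 1, 8.30 CPM in control replicate 2, 5.76 CPM in PP121 replicate 1 and 19.8 CPM in PP121 replicate 2. PP121 was higher than control on each day, 3.90-fold on day 42 and 2.38-fold on day 38, but PP121 replicate 1 lay below control replicate 2. By edgeR's quasi-likelihood test without the day, the log2 difference was 1.46 ± 0.84 and did not pass (Benjamini-Hochberg adjusted p = 0.52, n = 2 each, 8 of the 10 members tested). In that fit 0% of 21243 genes passed, 2549 having an unadjusted p under 0.05, and DESeq2 called 87. With the replicate number as a block BMP5 rose by 1.56 ± 0.22 (edgeR adjusted p = 1.97e-05), among 14.8% of genes that passed. The blocked fit has 1 residual degree of freedom per gene and borrows the rest of its spread from the other genes.

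BMPR2, the type II receptor of BMPs, was the other member called in that fit. Its level in neurons was 436 and 497 CPM in controls and 493 and 624 CPM in PP121 samples, a log2 difference of 0.29 ± 0.09 with the block (edgeR adjusted p = 0.0205). With DESeq2 and the block the call was lost (adjusted p = 0.169), while that of BMP5 was kept (adjusted p = 0.00183). BMPR1A stood at 186 and 202 CPM in controls and 215 and 210 CPM with PP121, so both treated samples lay above both controls, as for 19.7% of all genes, and its difference of 0.17 ± 0.09 did not pass. BMPR1B, the type I receptor often found in neural and skeletal tissue, gave 114 and 186 CPM against 154 and 175 CPM and did not pass. Nor did BMP2, BMP6, BMP7 and NOG, whose blocked log2 differences were -0.71, -0.47, 0.05 and 0.02. Of BMP6, 95 and 91 UMIs (5.01 and 8.21 CPM) were in controls and 86 and 31 UMIs (5.11 and 3.54 CPM) in PP121 neurons. BMP4 and GREM1 had too few counts to be tested.

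The neuronal difference in BMP5 was looked at against the boundary of the class. Restricted to neurons with more neuron than progenitor markers detected, the blocked log2 difference was 1.56 ± 0.23 (edgeR adjusted p = 4.18e-04, chosen as an alternative with the block after the data were seen). Without nuclei above 2 times the median depth of their class it was 1.45 ± 0.26 (edgeR adjusted p = 2.81e-06). The mesenchymal markers in neurons were 1.08-fold and 1.15-fold higher with PP121 on days 42 and 38, and 1 of 13 markers exceeded BMP5 on day 42 (TWIST1, 4.5-fold from 8 against 2 UMIs, 95% counting interval 0.899 to 43.5) and 2 on day 38 (PRRX1, 3.46-fold, and TWIST1, 3.48-fold). RUNX2 alone gave 82.4 and 93.1 CPM of the summed markers in controls and 85.4 and 93.4 CPM with PP121. The authors' subtypes marked 143 and 61 of the PP121 neurons as Non-Neuronal, against 16 and 16 in controls, and these held 630 of 2588 BMPR1B UMIs in PP121 replicate 1. Without them, an alternative chosen after seeing the data, the blocked log2 difference was 1.61 ± 0.23 for BMP5 (edgeR adjusted p = 6.18e-04), 0.31 ± 0.09 for BMPR2 (edgeR adjusted p = 0.0343) and 0.05 ± 0.11 for BMPR1B. Left out in turn, without the block, the libraries gave differences from 0.32 (without PP121 replicate 2) to 3.16 (without control replicate 2), and BMP5 was called only without PP121 replicate 1, at 2.17 (edgeR adjusted p = 0.00257).

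BMP5 was unevenly spread over the neurons. Cholinergic neurons had less of it than the other neurons of their sample in 4 of 4 samples, at 0.473 against 2.01 CPM and 1.72 against 9.80 CPM in controls (3 and 4 UMIs in cholinergic neurons) and 2.77 against 7.18 CPM and 15.1 against 21.0 CPM with PP121. The same held for GABAergic neurons, at 0.869 against 2.08, 3.53 against 9.91, 2.02 against 8.90 and 16.5 against 21.2 CPM. These rest on 8, 11, 14 and 23 UMIs in GABAergic neurons. A neuron can carry more than 1 identity, so the cholinergic and GABAergic sets may share nuclei. Nitrergic and glutamatergic neurons had no order that held in all samples. The controls carry neuron subtypes numbered EN 1 to EN 8 and the PP121 samples EN A to EN I, from different clusterings, so they are not compared. BMP5 reached 24.9 CPM in EN 8 of control replicate 2 and 29.6 CPM in EN H of PP121 replicate 2, from 24 and 57 UMIs.

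The pathway beyond the members was read from 68 further genes, of which 50 were tested in neurons. With the block 14 of them passed for PP121, 10 higher and 4 lower (28% against 14.8% of all genes), and the median log2 difference of the list was 0.13 against -0.01 over all genes. Without the block 0 of the 50 passed. SMAD9, which carries the signal to the nucleus, had 22.8 and 29.5 CPM in controls and 31.4 and 59.1 CPM with PP121, a rise of 0.76 ± 0.13 (edgeR adjusted p = 2.02e-04 with the block). CRIM1, a membrane protein that binds BMPs, rose by 0.75 (59.8 and 78.5 against 91.5 and 139 CPM). Smaller rises were those of SKI, a co-repressor of SMADs (0.41), SMURF2, a ubiquitin ligase that targets SMADs and receptors (0.35), GDF11, a ligand of the activin branch (0.35), and NEO1, the receptor of the repulsive guidance molecules (0.27). ACVR1, a type I receptor, fell by 0.53 (68.8 and 92.2 against 55.0 and 51.7 CPM). Of 7 target genes tested 1 rose and 1 fell. MSX2, a homeobox target, rose by 1.92 ± 0.58 (edgeR adjusted p = 0.0253 with the block) from 5 and 3 UMIs in controls (0.264 and 0.271 CPM) and 18 and 8 with PP121 (1.07 and 0.914 CPM), and was chosen after its values were seen, since it lay below the level set for named genes. ID2, a direct target of the pathway in many cells, fell by 0.49 (52.0 and 38.4 against 34.0 and 28.4 CPM), and RGMA, a co-receptor, fell by 0.35.

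In the progenitors, where the choice was made, the same list is given as a description. No call is read from it, and the genes given were chosen after their values were seen. SMAD9 in progenitors was 17.1 and 22.4 CPM in controls and 27.4 and 46.6 CPM with PP121. ID1, a target gene of SMADs, in progenitor 2 was 60.2 and 41.1 CPM in controls and 92.1 and 84.2 CPM with PP121, and in progenitor 1 it was 29.1 and 21.3 CPM against 42.3 and 49.6 CPM. Target genes had a median log2 difference of 0.64 over the 8 with enough counts, in the fit without the block, against -0.01 for all genes. The whole list had a median of 0.084 over 51 tested genes in that fit. By role the others were 0.155 for ligands, -0.069 for receptors and co-receptors, 0.084 for extracellular regulators and 0.077 for intracellular genes. In neurons ID1 was 16.7 and 15.5 CPM in controls and 16.8 and 22.2 CPM with PP121. BMP6 was lower in progenitors of both PP121 samples (3.88 and 3.15 against 4.26 and 5.01 CPM), as were 12.9% of genes.

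In mesenchymal nuclei, where the BMP5 level was highest, no member passed for PP121. The log2 difference of BMP5 was 0.47 ± 0.32 (edgeR adjusted p = 1, n = 2 each, 7 of the 10 members tested), and both PP121 samples lay above both controls, as for 14% of genes. On day 38, where the nuclei were many, BMP5 was 238 CPM in control and 256 CPM with PP121, a ratio of 1.07. In this class 0% of 14387 genes passed without the block, with 222 at an unadjusted p under 0.05 and 0 called by DESeq2, and 0.452% with it. Of the pathway list 0 of 38 passed in either fit. BMPR1B was 382 CPM in control and 199 CPM with PP121 on day 38, but 143 and 185 CPM on day 42. In sums over nuclei, fewer expressing nuclei and less RNA per nucleus cannot be told apart.

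Day 38 and day 42 were compared next. In enteric neurons BMP5 was higher on day 38, at 8.30 and 19.8 CPM against 1.48 and 5.76 CPM, and the days did not overlap. The log2 difference was 2.01 ± 0.65 without the treatment in the fit (edgeR adjusted p = 0.661) and 2.10 ± 0.22 with it (edgeR adjusted p = 1.93e-07). Of all genes 0% passed in the first fit, with 1574 at an unadjusted p under 0.05 and 59 called by DESeq2, and 9.49% passed with treatment as a term. BMPR1B rose on day 38 by 0.51 ± 0.10 and BMPR2 by 0.32 ± 0.09 in the fit with treatment (edgeR adjusted p = 0.0014 and 0.0137). DESeq2 with the same terms gave adjusted p-values of 0.0531 and 0.172 for them, and 5.65e-06 for BMP5. These 3 of 8 tested members had both day-38 samples above both day-42 samples, as did 14.2% of genes. BMP2 lay the other way (1.48 and 0.891 against 0.812 and 0.457 CPM), as did 24.8% of genes, and did not pass.

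The mesenchymal markers moved with the day too. In neurons their sum was 152 and 164 CPM on day 42 and 200 and 230 CPM on day 38. The ratio was 1.32 in controls and 1.4 with PP121, where BMP5 gave 5.62 and 3.43. RUNX2 alone gave 82.4 and 85.4 CPM of these sums on day 42 and 93.1 and 93.4 CPM on day 38. In controls COL3A1 was 4.12 CPM on day 42 and 17.9 CPM on day 38, and LAMA4 was 7.65 and 7.39 CPM. Of the 13 markers 5 exceeded BMP5 in the PP121 samples, COL1A1 (6.25-fold), COL1A2 (5.65-fold), COL3A1 (6.35-fold), PRRX1 (6.06-fold) and TWIST1 (5.29-fold). In controls 1 did, TWIST1, at 6.84-fold from 8 against 2 UMIs (95% counting interval 1.36 to 66.1). The lowest were LAMA4 with PP121 (0.723-fold) and EDNRA in controls (0.9-fold). Their part in the difference between days was not tested. Without the neurons of the Non-Neuronal subtype, chosen after seeing the data, the differences with treatment as a term were 2.14 ± 0.23 for BMP5, 0.54 ± 0.11 for BMPR1B and 0.32 ± 0.09 for BMPR2 (edgeR adjusted p = 6.17e-05, 0.00666 and 0.0393).

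In progenitors the order of days was the same for BMP5, with 1.55 and 11.6 CPM on day 42 and 6.82 and 38.8 CPM on day 38, where PP121 replicate 1 exceeded control replicate 2. With treatment as a term the rise was 1.97 ± 0.25 (edgeR adjusted p = 1.50e-06), and without it 1.87 ± 0.91 (edgeR adjusted p = 0.491, n = 2 each). BMP5 was chosen from these same progenitor counts, though by treatment and not by day, so its p-values here are a description. Genes passing made up 0% of 20260 in the fit without treatment, 2248 of them at an unadjusted p under 0.05 and 109 called by DESeq2, and 2.99% in the fit with it. The 3 receptors were higher in both day-38 samples, as were 12.8% of genes, with log2 differences of 0.39 ± 0.16 for BMPR1A, 0.49 ± 0.16 for BMPR1B and 0.51 ± 0.16 for BMPR2. None of these passed (edgeR adjusted p = 0.227, 0.105 and 0.0792), and 7 of the 10 members were tested. The mesenchymal markers moved with the day in progenitors as well, their sum being 1.24-fold higher on day 38 in controls and 1.41-fold with PP121. RUNX2 alone was 93.9 and 104 CPM on day 42 and 95 and 102 CPM on day 38. BMP5 was 4.39-fold and 3.33-fold higher, and 2 and 4 of the 13 markers exceeded it, COL3A1 at 5.17-fold and 10-fold among them. Their part in the BMP5 difference was not tested.

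Other genes of the pathway also differed between the days in neurons. With treatment as a term 9 of the 50 rose on day 38 and 1 fell (20% called against 9.49% of all genes), and of 18 extracellular regulators 6 rose. SMAD7, the inhibitory SMAD, was 9.6 and 10.4 CPM on day 42 and 16.2 and 20.8 CPM on day 38, a rise of 0.94 ± 0.17 (edgeR adjusted p = 2.91e-04). FSTL1, a secreted follistatin-like protein, rose by 0.58 and ACVR2A, a type II receptor, by 0.36. ID4 fell by 0.72, from 54.7 and 37.0 CPM to 28.0 and 24.9 CPM. In progenitors 3 of 51 list genes passed, all higher on day 38, FST, SMAD6 and SMAD7.

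**Figure D3:**
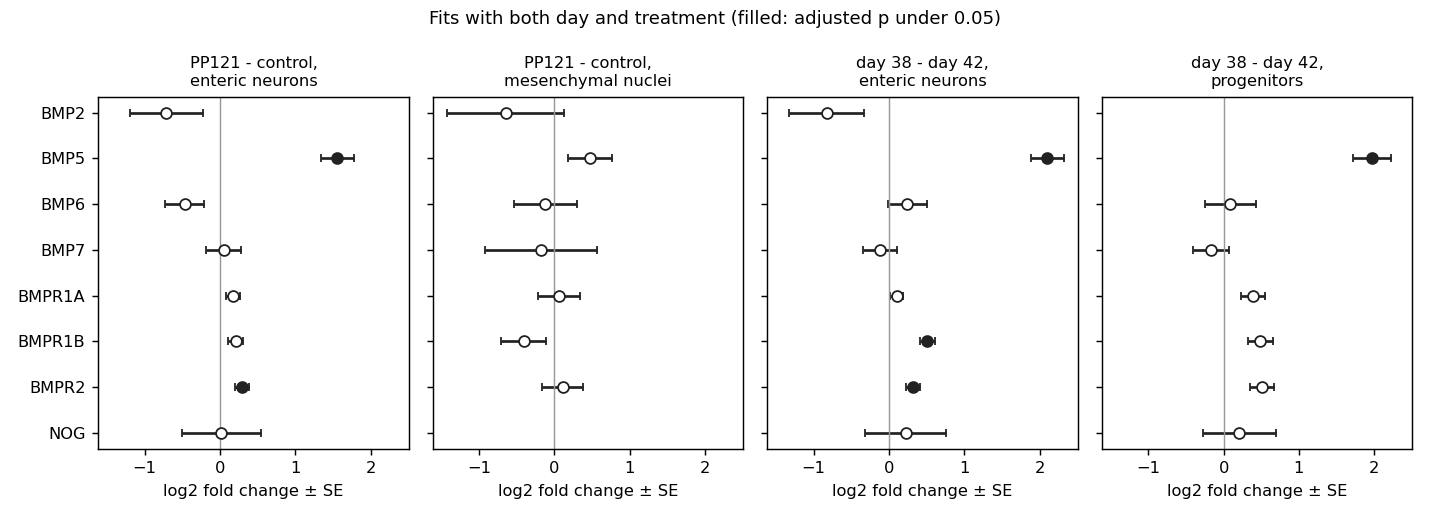
Log2 fold changes with standard errors of the members tested, from edgeR fits with both day and treatment, for PP121 minus control and for day 38 minus day 42; filled points passed an adjusted p of 0.05. BMP5 passed in 3 of the 4 panels, at 1.56, 2.10 and 1.97, and not in mesenchymal nuclei, at 0.47. The progenitor panel uses the counts from which BMP5 was chosen, so its value there is a description.

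The other ligands differed in the class where each was highest. BMP7, a broadly used ligand of epithelia and progenitors, was highest in the unknown class at 53.0 and 70.3 CPM in controls and 110 and 111 CPM with PP121, above every other class. In progenitor 2 it was 24.8 and 11.5 CPM in the controls and 17.0 and 14.5 CPM in the treated samples, and in neurons 5.05 to 6.81 CPM. BMP6, a near relative of BMP5 and BMP7, was 26.8 to 81.1 CPM in the unknown class and 19.9 and 32.3 CPM in mesenchymal nuclei of day 38, which overlap, and 98.1 CPM in the 40 mesenchymal nuclei of control replicate 1. It stayed at 1.64 to 8.59 CPM in progenitors and neurons. BMP2, of the other ligand branch with BMP4, reached 11.9 and 8.06 CPM in mesenchymal nuclei of day 38 (43 and 28 UMIs) and at most 1.48 CPM in neurons and progenitors.

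BMP4 and the antagonists were near the floor of these counts. BMP4 gave 0 to 4 UMIs in any class and sample, with 0 of 18951821 UMIs in neurons of control replicate 1, which allows up to 0.158 CPM. GREM1 gave 0 to 9 UMIs. NOG had its highest median in progenitor 1, at 1.77 and 2.26 CPM in controls and 2.99 and 3.28 CPM with PP121, from 7 to 21 UMIs, which overlapped with the unknown class at 0 to 2.74 CPM but not with neurons at 0.571 to 0.902 CPM. In progenitor 2 it was 0.927 to 1.30 CPM. Differences in these genes between treatments were not detectable at this depth.

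The receptors were found in every class. BMPR1A had a median of 354 CPM in progenitor 1, 338 CPM in mesenchymal nuclei, 332 CPM in progenitor 2 and 237 CPM in the unknown class, neighbours that overlapped, and 206 CPM in neurons, whose highest sample (215 CPM) lay below the lowest of the other classes with at least 50 nuclei (225 CPM). BMPR1B ran from 363 to 507 CPM in progenitor 2 and from 338 to 587 CPM in progenitor 1, against 114 to 186 CPM in neurons and 98.4 to 144 CPM in the unknown class. BMPR2 had its highest median in neurons (495 CPM, range 436 to 624) and its lowest in the unknown class (321 CPM), and every class overlapped with the next. After thinning to 2000 UMIs, nuclei with BMPR2 and either BMPR1A or BMPR1B were counted, and ACVR1 was left out. They made up 31.2% and 36.8% of progenitor 2 nuclei in controls and 34.8% and 40.1% with PP121. Progenitor 1 had 29.7% and 36.3% in controls against 24.3% and 41.8% with PP121. The unknown class had 17% and 37.3% against 17.7% and 19.8%. Mesenchymal nuclei of day 38 had 33.3% in control and 33.1% with PP121. In neurons the shares were 21.1% and 27.6% in controls and 25.3% and 31.3% with PP121.

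Any of the 5 ligands was detected in 27.3% to 36.4% of unknown nuclei and in 31.4% and 31.2% of mesenchymal nuclei of day 38 at the same depth. In neurons the share was 2.71% to 4.62%. Progenitor 2 had 5.14%, 4.58%, 6.18% and 9.40%, the last in PP121 replicate 2 with an interval of 7.52 to 11.6.

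**Figure D4:**
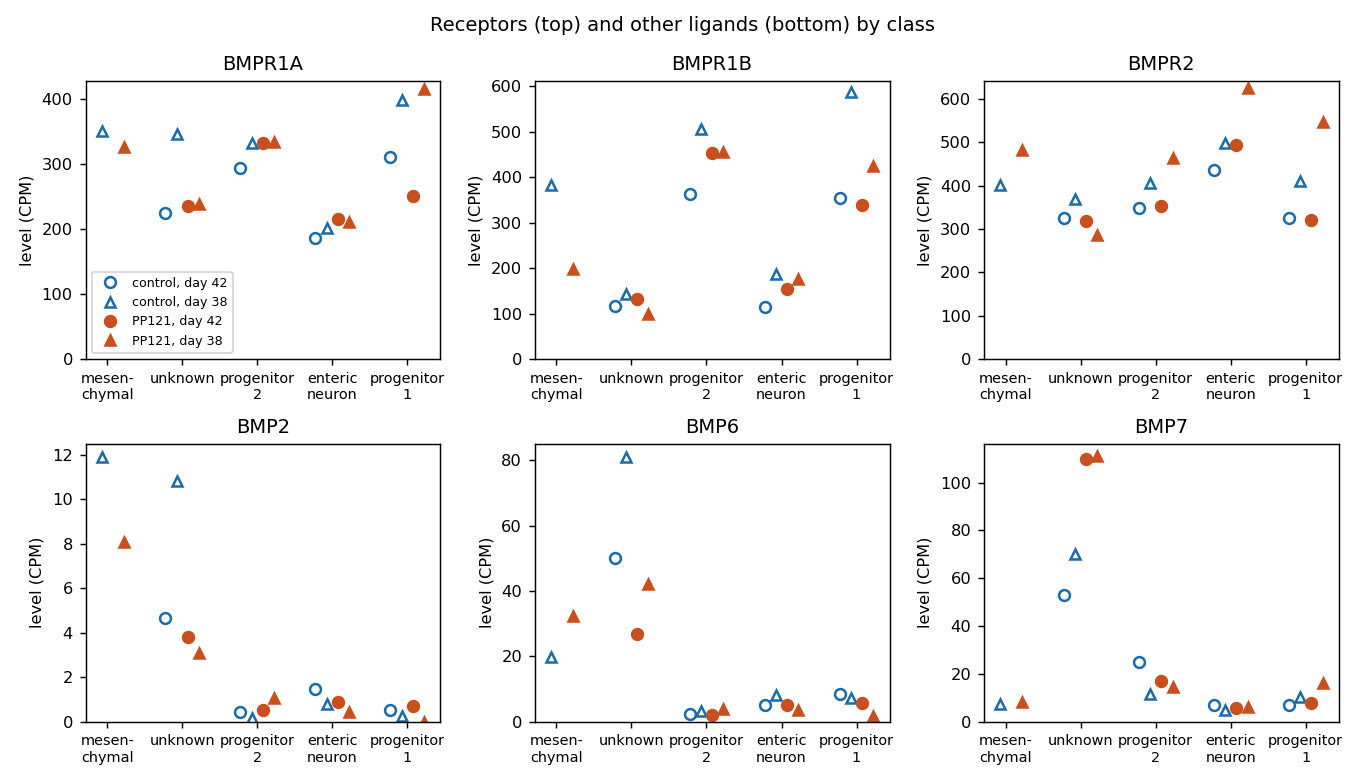
Levels in CPM of the 3 receptors (top) and of BMP2, BMP6 and BMP7 (bottom) by class, 1 point per sample with at least 50 nuclei of the class, each axis from 0. BMPR1B lies at 338 to 587 CPM in the progenitor classes and 114 to 186 CPM in neurons, and BMP7 is highest in the unknown class at 53.0 to 111 CPM.

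The genes most like BMP5 were ranked by Pearson's r of log2(CPM + 1) over the 18 class profiles with at least 50 nuclei, among 14628 genes. They were FBXL7 (r = 0.964), AC010638.1 (0.952), the cell-surface proteoglycan GPC6 (0.945), MROH9 (0.944) and BX284613.2 (0.941), all with their highest profile in mesenchymal nuclei of PP121 replicate 2. Profiles of a sample share its library. Among the members BMP2, which had too few UMIs to be ranked, had r = 0.809, BMP6 0.703 and BMP7 0.512, while BMPR1B had -0.352.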

How the data were processed

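Nuclei of enteric ganglioids were profiled in 4 samples. Per the study's methods, UMIs of the droplet libraries were assigned with kallisto and bustools and samples were demultiplexed by hashtags, and the submitters' processing notes list Cell Ranger, Seurat 4.0.4 and GRCh38. The deposited counts are whole UMI counts per gene and nucleus, without normalization. Whether intronic reads or strand were used is not given in the sources used here, so overlapping and antisense genes are uncertain. Nuclei that the authors marked as filtered were left out, which kept 2912 to 4587 nuclei a sample. The sample column in the deposited annotation disagrees with the labels for the controls, and the labels were used. The deposited annotation also holds mitochondrial and ribosomal shares in percent, which the authors computed per nucleus and which enter no result here. No clusters were drawn and no doublet caller was run here. Per the study's methods the authors filtered on features, UMIs and mitochondrial share. Nuclei above 2 times the median UMIs of their class and sample were left out as an alternative.

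Counts were summed per class and sample and given as CPM of all counts. Tests used edgeR 4.0.16 (TMM, filterByExpr, quasi-likelihood test, two-sided, Benjamini-Hochberg over all genes, threshold 0.05) in R 4.3.3, with DESeq2 1.42.0 as an alternative, and the script was tested on simulated data. Total counts were 23348045 to 34123759 UMIs a sample in annotated nuclei, which sets the precision. The replicate numbers mark a shared day and so pair the samples. Deviations of same-numbered samples had r = 0.421 in neurons, 0.284 in progenitors and 0.276 in mesenchymal nuclei. Shares were thinned to 2000 UMIs and have 95% Clopper-Pearson intervals. A count of 0 allows 3 counts.

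The members, gene lists and comparisons were chosen with earlier results of these data known. Named pathway genes were those of the 68-gene list called in neurons, with at least 10 CPM on average and both samples of 1 side above the other, at most 10 for PP121 and 6 for day. The rule named no gene in mesenchymal nuclei. Of the genes it named for day, 1 is not reported here. Other names are given as chosen after their values were seen: SMAD9 and ID1 in progenitors, FST, SMAD6 and SMAD7 in progenitors, MSX2, COL3A1, PRRX1, TWIST1, LAMA4 and other single mesenchymal markers. Sequences and positions are from RefSeq. Python 3.11 scripts drew the figures. Alternatives are in the closing section.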

Additional observations from a re-analysis of the deposited data

Results flagged for a closer look

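BMP7 stood out because the day moved it in opposite directions in the progenitor classes, in each treatment. The same check was made for other members with enough counts and for other pairs of classes, and flagged none of them. How often such a flag arises by chance was not tested. In progenitor 1 it was 7.08 and 7.83 CPM on day 42 and 10.3 and 16.1 CPM on day 38, from 28 to 55 UMIs. In progenitor 2 it was 24.8 and 17.0 CPM on day 42 and 11.5 and 14.5 CPM on day 38, from 62 to 222 UMIs. The mean log2(CPM + 1) differences between day 38 and day 42 stood 1.35 apart. The difference between the classes was not tested, and the classes were clustered on the same counts.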

How the results depend on the processing

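Settings that combine the block with another change were chosen after seeing the data, as was the choice of neurons or progenitors by markers with it. For PP121 in neurons, 0 genes and 0 members passed without the block. With the replicate block, which pairs samples of the same day, 3152 genes and 2 members passed. DESeq2 gave 87 genes and no filter 69. DESeq2 with the block gave 633 genes and 1 member, the block without doublet candidates 3221 and 2, and the block with neurons whose markers had the call of their class 2690 and 2. Without the Non-Neuronal subtype, also chosen after seeing the data, the block gave 2306 and 2. For day in neurons, 0 genes and 0 members passed without treatment, and 2015 and 3 with treatment as a term. DESeq2 gave 59 genes, no filter 158 and 1 member, and DESeq2 with treatment 453 and 1. Treatment as a term gave 2125 and 3 without doublet candidates, 1429 and 3 without the Non-Neuronal subtype, and 1501 and 3 where markers had the call of the class. For PP121 in mesenchymal nuclei 0 genes passed, against 65 with the block, 40 with no filter, 3 with DESeq2 and the block, and 18 with the block and no doublet candidates. No member passed in any of these. For day in progenitors 0 genes passed, against 606 and 1 member with treatment as a term, 109 genes with DESeq2, 40 with no filter and 169 and 1 with DESeq2 and treatment. Treatment as a term gave 763 and 2 without doublet candidates and 252 and 1 where markers had the call of the class. The cause of these differences between settings was not tested.

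With 1 library left out, and no block, the lone sample of a side is assumed to vary like the others. Then 0 to 1402 genes and 0 to 1 member passed for PP121 in neurons, the highest without PP121 replicate 1. For day in neurons the ranges were 2 to 271 genes and 0 to 1 member, with BMP5 called without control replicate 2 (edgeR adjusted p = 0.0392) and without PP121 replicate 1 (edgeR adjusted p = 0.0309). For PP121 in mesenchymal nuclei they were 0 to 24 genes and 0 members. For day in progenitors they were 2 to 1031 genes and 0 to 2 members. BMP5 was called there without control replicate 2 (edgeR adjusted p = 0.0336) and without PP121 replicate 1 (edgeR adjusted p = 4.89e-11), and BMPR2 without control replicate 2 (edgeR adjusted p = 0.0198). BMPR2 also passed there with treatment as a term and no doublet candidates (edgeR adjusted p = 0.0423). The progenitor counts are those from which BMP5 was chosen, so its calls for day in progenitors are a description.

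The members' 37 log2 differences, refitted under each alternative, had the other sign in 43 refits, and none of these was of BMP5. With 1 library left out, the ranges that crossed 0 for PP121 in neurons were -0.09 to 0.27 for BMP7, with -0.01 without PP121 replicate 2, -0.17 to 0.61 for BMPR1B, and -0.38 to 0.31 for NOG, with 0.12 without PP121 replicate 2. BMP7 was -0.11 without the Non-Neuronal subtype and -0.12 with the block as well, and -0.01 with the block where markers had the same call as the class, and NOG was 0.02 with the block, 0.05 for such neurons and 0.10 for them with the block. For day in neurons the ranges were -0.43 to 0.74 for BMP6, -0.28 to 0.07 for BMP7, -0.02 to 0.23 for BMPR1A and -0.15 to 0.46 for NOG, with -0.01 without control replicate 1. BMP6 was -0.03 without doublet candidates and -0.05 with treatment as well. For PP121 in mesenchymal nuclei they were -1.66 to 0.71 for BMP6, -0.27 to 0.43 for BMPR1A, -0.99 to 0.36 for BMPR1B and -0.02 to 0.17 for BMPR2. For day in progenitors they were -0.26 to 0.43 for BMP6, -0.46 to 0.13 for BMP7 and -0.10 to 0.56 for NOG. For PP121 in progenitors, a description, they were -0.43 to 0.28 for BMP7, -0.23 to 0.19 for BMPR1A, -0.41 to 0.29 for BMPR1B and -0.22 to 0.43 for BMPR2. In progenitor 2 alone, without and with the block, BMP6 was 0.12 and 0.07, BMPR1A 0.11 and 0.12, and BMPR1B 0.09 and 0.11. In progenitor 1 alone BMP7 was 0.40 and 0.38. Of the shares at another depth or unthinned, 249 moved out of the interval of the thinned value and 231 stayed within it. Depth limits BMP4, GREM1 and NOG most, and 40 and 33 nuclei limit the mesenchymal class on day 42.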
